A study of Mus musculus with 38 samples.

Results

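Transcripts of the 7 cyclin-dependent kinase inhibitor genes of the mouse were followed through a glioma co-culture study: Cdkn1a, Cdkn1b and Cdkn1c of the Cip/Kip family and Cdkn2a, Cdkn2b, Cdkn2c and Cdkn2d of the INK4 family. The members were chosen by gene symbol, with earlier results of these data known. They were found by Ensembl identifier among the 55487 genes of each of 3 deposited count tables. All 7 passed the filter on low counts in the fit of every cell type. The series holds 38 poly(A) RNA-seq libraries in 18 groups, of which 16 have 2 libraries and 2 have 3. Cells were BV2, an immortalised murine microglial line, GL261, a murine glioma line that stably carried pEGFP-N1, and primary wild-type bone marrow-derived macrophages (BMDM). In the co-culture experiments each of the 3 cell types was kept alone or together with its partner, BV2 with GL261 at 1:2 and BMDM with GL261 at 1:1, in normoxia (21% oxygen) or in hypoxia (less than 0.1% oxygen) for 16 h. In a further experiment BV2 and BMDM without glioma cells received DMSO in normoxia, DMSO in hypoxia, or 10 nM panobinostat, a broad histone deacetylase inhibitor, in hypoxia. BMDM co-cultures have 3 libraries per oxygen level. The labels do not say how cells were separated after co-culture or which partner the co-cultured GL261 had, and BV2 was taken as that partner when partner RNA was estimated. Cells were fixed in 3% glyoxal before RNA isolation. The labels name no separate donors for the BMDM libraries, and only for the BV2 and GL261 co-culture tables do they call the 2 replicates biological, so the p-values measure the spread between these libraries, which may be partly technical.

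As background, progression from G1 into S phase needs cyclin D with Cdk4 or Cdk6 and then cyclin E with Cdk2, which phosphorylate the pocket proteins and free E2F factors. The Cip/Kip proteins p21 (Cdkn1a), p27 (Cdkn1b) and p57 (Cdkn1c) bind whole cyclin and kinase complexes, whereas the INK4 proteins p15 (Cdkn2b), p16 (Cdkn2a), p18 (Cdkn2c) and p19Ink4d (Cdkn2d) bind Cdk4 and Cdk6. Cdkn1a is the classical p53 target, and p27 is held low in cycling cells mainly by degradation through Skp2. From an alternative first exon Cdkn2a also encodes p19Arf, which binds Mdm2, so a count for Cdkn2a pools both products.

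In GRCm38, Cdkn1a (ENSMUSG00000023067) lies on chromosome 17 at 29090976 to 29100727 on the plus strand, and Cdkn1b (ENSMUSG00000003031) on chromosome 6 at 134920401 to 134925513 on the plus strand. Cdkn1c (ENSMUSG00000037664) is on the minus strand of chromosome 7 at 143458339 to 143461050, and Cdkn2d (ENSMUSG00000096472) on the minus strand of chromosome 9 at 21288410 to 21291407. Chromosome 4 carries the remaining INK4 genes on its minus strand: Cdkn2a (ENSMUSG00000044303) at 89274471 to 89294653, Cdkn2b (ENSMUSG00000073802) next to it at 89306299 to 89311039, and Cdkn2c (ENSMUSG00000028551) farther away at 109660876 to 109667189. The bases before a start site are shown for Cdkn1a and Cdkn1b, the Cip/Kip genes called higher in hypoxic monocultures of every cell type. They are also shown for Cdkn2c, the INK4 gene called lower in hypoxic monocultures of every cell type. Sequences are from RefSeq (GRCm38.p6), 5′ to 3′ on the coding strand. Capitals mark GC boxes (GGGCGG) and the core of the hypoxia response element (ACGTG or GCGTG), each on either strand. The Cdkn1a window, at its second start site, is chr17:29093519-29093768, and that of Cdkn1b chr6:134920151-134920400. That of Cdkn2c, at its second start site and without 13 bases that lie in an annotated exon, is chr4:109665373-109665609.
Cdkn1a: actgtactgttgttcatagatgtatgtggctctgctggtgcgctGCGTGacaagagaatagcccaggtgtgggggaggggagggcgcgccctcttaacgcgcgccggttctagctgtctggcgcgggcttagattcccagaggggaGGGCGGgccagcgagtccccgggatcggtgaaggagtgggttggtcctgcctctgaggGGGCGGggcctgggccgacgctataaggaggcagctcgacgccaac
Cdkn1b: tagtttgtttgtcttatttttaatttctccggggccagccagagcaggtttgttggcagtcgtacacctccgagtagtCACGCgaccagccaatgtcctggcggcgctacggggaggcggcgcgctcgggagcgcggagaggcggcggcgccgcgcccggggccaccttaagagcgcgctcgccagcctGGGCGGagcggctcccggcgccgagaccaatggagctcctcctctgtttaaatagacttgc
Cdkn2c: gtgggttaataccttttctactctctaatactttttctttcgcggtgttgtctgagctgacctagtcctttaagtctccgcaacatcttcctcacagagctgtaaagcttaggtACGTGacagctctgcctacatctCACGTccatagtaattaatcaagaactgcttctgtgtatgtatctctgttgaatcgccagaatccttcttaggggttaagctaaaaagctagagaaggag
The Cdkn1a window held 2 GC boxes and 1 GCGTG core, followed by a TATAA match at base 226. The Cdkn1b window held 1 GC box and 1 GCGTG core, and the Cdkn2c window 2 ACGTG cores and no GC box. At the first Cdkn2c start site the 250-base window held 3 GC boxes and 1 GCGTG core, one of the boxes overlapping the core. GC boxes were found in 32.7% of 32851 RefSeq windows of this length and either hypoxia core in 38.6%, so these letters are common. Cdkn1c had no RefSeq window and was not searched. Among the other windows, a hypoxia core was found in that of Cdkn2b, of Cdkn2d and of the first start site of Cdkn2a, which had 4. None was found at the second Cdkn2a site or the first Cdkn1a site. These matches describe the sequence only.

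Library totals ran from 9634700 to 27238933 counts, and the least abundant member value was 8 counts, for Cdkn2b in a BV2 library. Levels below are CPM (counts scaled to a common library size) after TMM scaling within each cell type's fit, so levels of different cell types are set side by side only as a description. Markers matched the labelled types in the main: Csf1r ran from 505 to 1138 CPM in the BV2 co-culture experiment and Sox10 from 689.6 to 1286 CPM in GL261, where the 14 microglia and macrophage markers summed to 8.80 to 32.5 CPM. Defining microglial transcripts were sparse in those BV2 libraries, with P2ry12 at 1.62 to 7.65, Tmem119 at 1.18 to 2.77 and Sall1 at 0 to 0.278 CPM. BMDM of the panobinostat experiment stood apart, since their 5 fibroblast markers summed to 2899 to 20805 CPM against 57.3 to 536 CPM in the other BMDM libraries. From transcripts specific to the partner, the share of partner RNA in co-culture libraries was estimated at 0.568% to 2.36% in BV2, 0.218% to 0.915% in GL261 and 1.29% to 6.28% in BMDM. Antisense genes overlap exons of Cdkn1a and of Cdkn1c, and use of strand in counting is not given in the sources used here. The antisense genes had at most 13 and 14 counts in a library, so the Cdkn1c values in particular, with 10 to 388 counts per library, carry this uncertainty.

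Per kilobase of exon, the make-up of the family differed by cell type and oxygen. In normoxic BV2 monoculture Cdkn2a led with 54.3 CPM per kb, 52.7% of the length-scaled sum over the 7 genes, followed by Cdkn2d with 15.1 and Cdkn1a with 11.97 CPM per kb. Hypoxic BV2 were led by Cdkn1a, at 154 CPM per kb and 58.7% of the sum. GL261 showed the same exchange of the first place, from Cdkn2a at 83.0 CPM per kb in normoxic monoculture (41.9% of the sum) to Cdkn1a at 110 CPM per kb in hypoxia (44.6%). In BMDM, Cdkn1a led already in normoxic monoculture with 144 CPM per kb (48.7%), ahead of Cdkn2c with 80.4 CPM per kb (27.2%). Hypoxic BMDM monocultures had Cdkn1a at 258, Cdkn2d at 40.2 and Cdkn2c at 36.6 CPM per kb. Cdkn2b had the lowest share in 3 of the 4 BV2 groups of the co-culture experiment and ranked 6 of 7 in hypoxic co-culture, at 0.490% to 0.954%. In GL261 the lowest share was that of Cdkn1c, at 1.49% to 2.10%, a rank that carries the uncertainty over its antisense overlap.

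**Figure D1:**
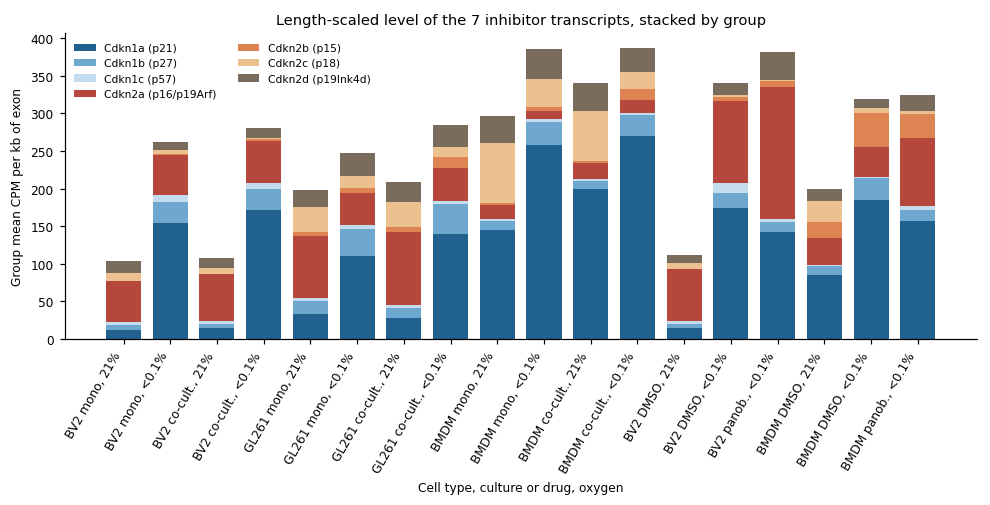
Group mean CPM per kilobase of exon (y axis, linear) of the 7 inhibitor transcripts, stacked, for 18 groups (x axis, cell type, culture or drug, and % oxygen). Cdkn2a is the largest part of the normoxic BV2 and GL261 bars, and Cdkn1a of their hypoxic bars, except with panobinostat in BV2, where Cdkn2a is again the largest at 177 CPM per kb.

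Ordered by plain CPM over all 18 groups, Cdkn1a was highest in hypoxic BMDM co-culture (mean 923) and lowest in normoxic BV2 monoculture (42.9), and 10 of 17 neighbouring groups in that order overlapped in their libraries. Cdkn1b ran from 171 in hypoxic GL261 co-culture to 25.4 in normoxic BV2 co-culture, with 14 of 17 neighbours overlapping. Cdkn2c ran the other way, from 233 in normoxic BMDM monoculture to 4.14 in panobinostat-treated BV2, with 12 of 17 overlapping. Cdkn2b was highest in BMDM of the panobinostat experiment (mean 56.4 with DMSO in hypoxia) and lowest in normoxic BV2 monoculture (0.745), with 12 of 17 overlapping. For Cdkn2d, 16 of 17 neighbours overlapped between 62.1 and 16.0, so its order says little. Cdkn1c, from 27.3 in hypoxic DMSO-treated BV2 to 2.49 in normoxic DMSO-treated BMDM, had 14 overlapping neighbours, and Cdkn2a, from 209 in panobinostat-treated BV2 to 11.7 in hypoxic BMDM monoculture, had 11.

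**Figure D2:**
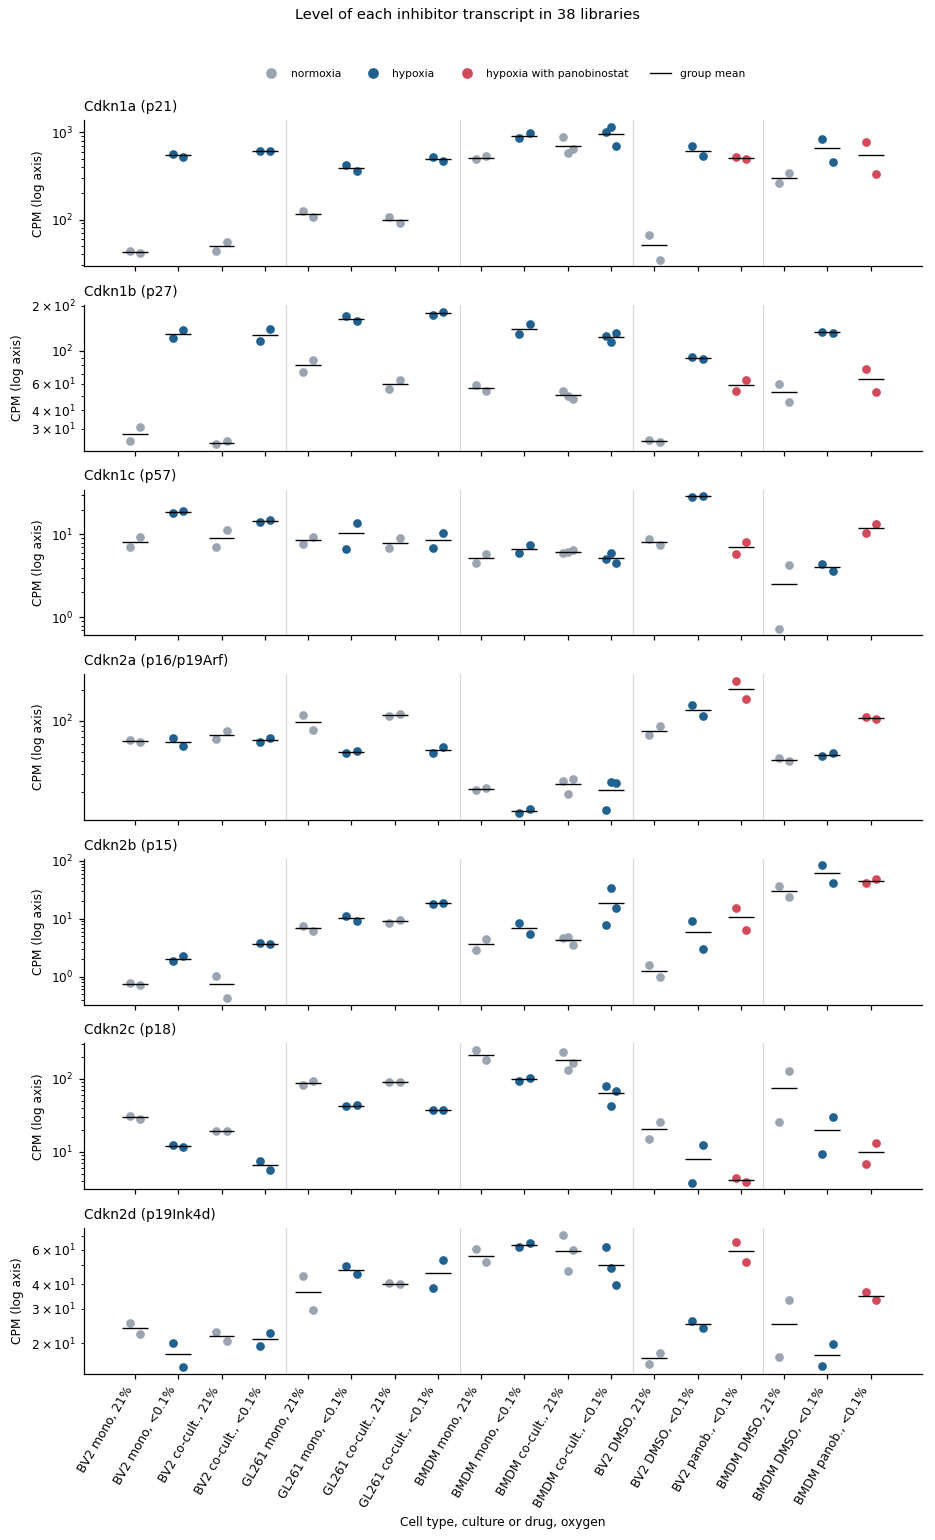
CPM after TMM scaling within each cell type's fit (y axis, log scale) of each inhibitor transcript in every library (points), by group (x axis), with the group mean as a line. Cdkn1a and Cdkn1b are higher in every hypoxic than in every normoxic library of BV2 and of GL261, and Cdkn2c is lower.

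Hypoxia changed the inhibitors in opposite directions. In monoculture Cdkn1a and Cdkn1b rose and Cdkn2c fell in all 3 cell types, whereas Cdkn2a fell in GL261 without a call in BV2. By edgeR's quasi-likelihood test with Benjamini-Hochberg adjustment over all genes, 6 of 7 members were called at an adjusted p under 0.05 in BV2 monoculture, where 61.9% of all 14432 genes tested were called (30.9% higher, 31% lower), and 5 in BV2 co-culture, where 67.3% were called (35.2% higher, 32.1% lower). These counts are near the background. In GL261, 5 members were called in monoculture (44.6% of all genes, 23.2% higher and 21.4% lower) and 5 in co-culture (52.4%, 26.8% higher and 25.6% lower). BMDM had 3 calls in monoculture (23.9%, 13.3% higher and 10.6% lower) and 3 in co-culture (34.8%, 17.5% higher and 17.3% lower). In the separate DMSO experiment BV2 had 5 calls (37.5%, 17.2% higher and 20.2% lower) and BMDM none (0.483%, 0.469% higher and 0.0134% lower). For BMDM with DMSO, 2 members had an unadjusted p under 0.05 and DESeq2 called 1. For hypoxia with DMSO, a fit with replicate number as a block also called Cdkn2a and Cdkn2d in BV2. In BMDM it called Cdkn1b and Cdkn2c. In bulk RNA, fewer cells of a kind and less transcript per cell cannot be told apart.

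**Figure D3:**
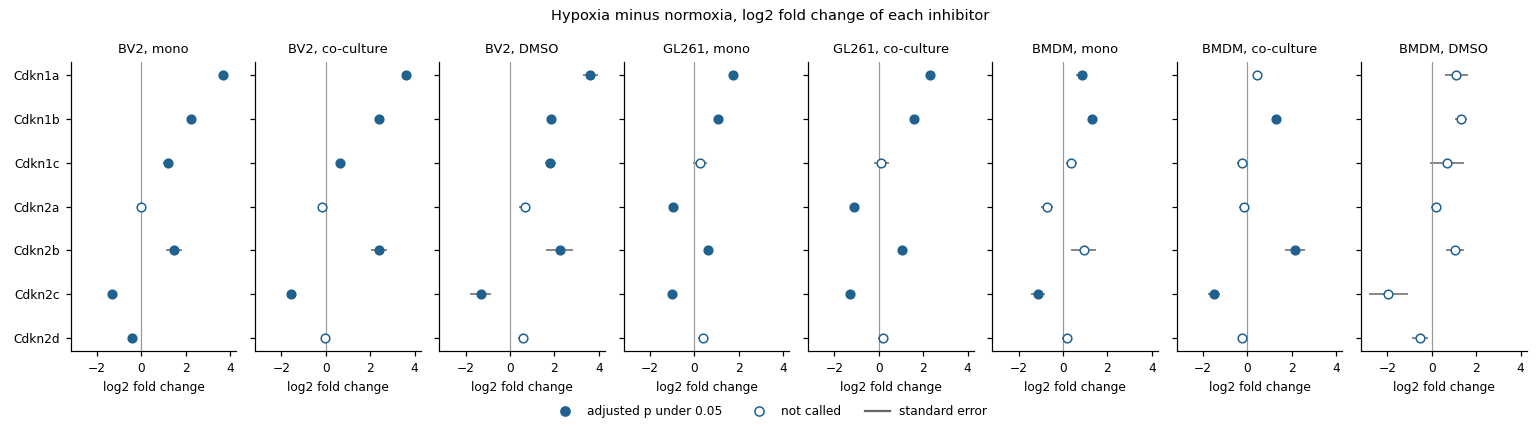
Log2 fold change of hypoxia over normoxia (x axis, the same range in each panel) for the 7 inhibitors (y axis) in 8 comparisons, with the standard error as a bar and filled points where the adjusted p was under 0.05. Cdkn1a lies at 3.60 to 3.68 in the 3 BV2 panels, and Cdkn2c lies below 0 in all 8.

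Cdkn1a, which encodes p21, had 44.0 and 41.0 CPM in normoxic and 569 and 525 CPM in hypoxic BV2 monocultures. The BV2 co-cultures had 43.8 and 54.9 CPM in normoxia and 614 and 608 CPM in hypoxia, and the DMSO-treated BV2 67.1 and 34.7 CPM against 706 and 533 CPM. In each BV2 setting the hypoxic libraries lay far above the normoxic ones. The log2 fold changes by edgeR were 3.68 (SE 0.13, adjusted p = 9.34e-12), 3.63 (SE 0.13, adjusted p = 1.20e-11) and 3.60 (SE 0.34, adjusted p = 0.00013), a 12.9-, 12.3- and 12.2-fold rise. GL261 started from higher normoxic levels, 125 and 106 CPM in monoculture and 107 and 91.9 CPM in co-culture. Their hypoxic libraries had 423 and 361 CPM and, in co-culture, 527 and 468 CPM. Both differences exceeded the spread of the libraries, with log2 fold changes of 1.76 (SE 0.15, adjusted p = 1.14e-05) and 2.32 (SE 0.16, adjusted p = 1.33e-06). BMDM had the highest normoxic levels, 491 and 534 CPM in monoculture. Hypoxic BMDM monocultures had 857 and 979 CPM, a log2 fold change of 0.84 (SE 0.25, adjusted p = 0.0323). That call rests on all 4 libraries, since leaving out the first or second normoxic library gave 0.72 (adjusted p = 0.215) and 0.82 (0.151), and leaving out the first or second hypoxic library 0.91 (0.0989) and 0.72 (0.192). BMDM co-cultures overlapped, with 886, 584 and 650 CPM in normoxia against 1014, 1159 and 709 CPM in hypoxia (log2 fold change 0.44, SE 0.20, adjusted p = 0.114). Without the first normoxic or the third hypoxic co-culture library the value was 0.62 each time, with an adjusted p of 0.0499 and 0.0304. DMSO-treated BMDM had 264 and 343 CPM in normoxia and 849 and 462 CPM in hypoxia, a log2 difference of 1.11 (SE 0.52) that was not called (adjusted p = 0.236).

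Cdkn1b, which encodes p27, followed the same direction with a smaller range. BV2 monocultures had 25.0 and 30.7 CPM in normoxia and 122 and 138 CPM in hypoxia, and co-cultures 23.7 and 24.8 CPM against 116 and 141 CPM. DMSO-treated BV2 had 25.0 and 24.5 CPM in normoxia and 90.9 and 87.9 CPM in hypoxia. No hypoxic BV2 library overlapped a normoxic one, and the log2 fold changes by edgeR were 2.22 (SE 0.14, adjusted p = 1.60e-09), 2.40 (SE 0.14, adjusted p = 8.50e-10) and 1.85 (SE 0.20, adjusted p = 0.000244). GL261 rose from 72.0 and 87.2 CPM to 170 and 158 CPM in monoculture (log2 fold change 1.05, SE 0.14, adjusted p = 0.000137). In co-culture the glioma cells had 55.6 and 63.5 CPM in normoxia and 174 and 183 CPM in hypoxia (1.58, SE 0.14, adjusted p = 6.51e-06). The macrophage values lay between 1.30 and 1.33 on the log2 scale in all 3 settings. Their monocultures had 59.1 and 53.8 CPM against 130 and 151 CPM (log2 fold change 1.32, SE 0.15, adjusted p = 0.000296). The 3 normoxic co-cultures had 54.1, 49.7 and 47.4 CPM and the hypoxic ones 126, 114 and 132 CPM (1.30, SE 0.13, adjusted p = 5.15e-05). With DMSO the values were 59.9 and 45.5 CPM against 133 and 132 CPM, a log2 difference of 1.33 (SE 0.27) that missed the threshold (adjusted p = 0.0751), although the libraries did not overlap.

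Cdkn1c, which encodes p57 and is an imprinted gene, rose in BV2 and was not called in GL261 or BMDM. In BV2 monoculture it had 7.14 and 9.27 CPM in normoxia and 17.99 and 19.2 CPM in hypoxia (log2 fold change 1.18, SE 0.19, adjusted p = 5.93e-05 by edgeR). Co-cultured BV2 had 6.99 and 11.4 CPM against 14.3 and 14.99 CPM (0.66, SE 0.20, adjusted p = 0.00859). Without the first normoxic co-culture library the value was 0.36 (adjusted p = 0.144), and without the second hypoxic one to 0.56 (0.0552). DMSO-treated BV2 had 8.86 and 7.52 CPM in normoxia and 28.7 and 28.99 CPM in hypoxia (1.82, SE 0.26, adjusted p = 0.000907). In GL261 the libraries of the 2 oxygen levels overlapped, between 6.75 and 13.9 CPM in all 8, with log2 differences of 0.27 (SE 0.32, adjusted p = 0.523) and 0.12 (SE 0.33, adjusted p = 0.77). The BMDM co-culture experiment lay between 4.54 and 7.53 CPM, with log2 differences of 0.38 (SE 0.26, adjusted p = 0.321) in monoculture and -0.24 (SE 0.21, adjusted p = 0.419) in co-culture. DMSO-treated BMDM had 0.731 and 4.28 CPM in normoxia, the lower from 10 counts, and 4.43 and 3.66 CPM in hypoxia (0.68, SE 0.76, adjusted p = 0.589).

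Cdkn2a, the locus of p16 and p19Arf, fell in hypoxic GL261. The glioma monocultures had 114 and 80.7 CPM in normoxia and 48.6 and 50.5 CPM in hypoxia (log2 fold change -0.97, SE 0.16, adjusted p = 0.00062 by edgeR), and the co-cultures 111 and 117 CPM against 48.5 and 55.8 CPM (-1.13, SE 0.16, adjusted p = 0.000156). All 4 hypoxic glioma libraries lay below all 4 normoxic ones. BV2 showed no such drop: monocultures had 65.0 and 62.3 CPM in normoxia and 68.5 and 56.4 CPM in hypoxia, a log2 difference of -0.03 (SE 0.13, adjusted p = 0.871). Co-cultured BV2 had 65.8 and 80.1 CPM against 61.8 and 68.3 CPM (-0.17, SE 0.13, adjusted p = 0.266). DMSO-treated BV2 had 72.5 and 88.5 CPM in normoxia and 145 and 111 CPM in hypoxia, a difference of 0.67 (SE 0.25) that missed the threshold (adjusted p = 0.0612) and passed it without the second hypoxic library (0.84, adjusted p = 0.046). BMDM had the lowest levels, 21.1 and 21.7 CPM in normoxic and 12.4 and 13.5 CPM in hypoxic monoculture (-0.73, SE 0.28, adjusted p = 0.0827). In BMDM co-culture the normoxic libraries had 25.6, 19.2 and 26.7 CPM and the hypoxic ones 13.5, 25.2 and 24.7 CPM (-0.17, SE 0.23, adjusted p = 0.596). The first hypoxic co-culture library thus lay with the hypoxic monocultures and the other two with the normoxic libraries. GL261 RNA was expected to supply 4.79% to 13.3% of the Cdkn2a level in those 6 BMDM co-cultures. With the expected partner counts subtracted, the hypoxia difference in co-culture was still not called. DMSO-treated BMDM had 42.8 and 40.0 CPM in normoxia and 45.1 and 48.4 CPM in hypoxia (0.17, SE 0.20, adjusted p = 0.594).

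Cdkn2b, which encodes p15 and is known as a target of TGF-beta signalling, rose in hypoxia in both lines from low levels. BV2 monocultures had 0.765 and 0.713 CPM in normoxia, from 18 and 16 counts, and 1.83 and 2.25 CPM in hypoxia (log2 fold change 1.46, SE 0.37, adjusted p = 0.00272 by edgeR). BV2 co-cultures had 1.04 and 0.427 CPM against 3.84 and 3.62 CPM (2.40, SE 0.37, adjusted p = 3.23e-05). In DMSO-treated BV2 the levels were 1.56 and 0.975 CPM against 8.96 and 2.99 CPM (2.23, SE 0.62, adjusted p = 0.0186). This last call was lost without the first normoxic (2.63, adjusted p = 0.0553), the second normoxic (1.95, 0.121) or the first hypoxic library (1.23, 0.144). GL261 monocultures had 7.47 and 6.19 CPM in normoxia and 11.4 and 9.31 CPM in hypoxia (0.60, SE 0.19, adjusted p = 0.0244). That call was lost without the second normoxic library (0.51, adjusted p = 0.117) or the first hypoxic one (0.48, 0.114). Co-cultured GL261 had 8.45 and 9.64 CPM against 18.3 and 18.98 CPM (1.04, SE 0.19, adjusted p = 0.000796), with no overlap. In BMDM the rise was called in co-culture, where normoxic libraries had 4.57, 4.76 and 3.47 CPM and hypoxic ones 7.83, 33.9 and 15.3 CPM (2.15, SE 0.45, adjusted p = 0.00385). The hypoxic macrophage libraries were widely spread, yet all lay above the normoxic ones. BMDM monocultures had 2.90 and 4.41 CPM against 8.44 and 5.46 CPM (0.93, SE 0.55, adjusted p = 0.249). DMSO-treated BMDM had far more Cdkn2b, 36.3 and 23.4 CPM in normoxia and 83.8 and 41.0 CPM in hypoxia (1.06, SE 0.41, adjusted p = 0.177). The summed fibroblast markers are also far higher in those libraries, through Col1a1, Col1a2 and Pdgfrb but not Dcn or Lum. The part of these markers in this level was not tested.

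Cdkn2c, which encodes p18, fell in hypoxia wherever a call was made. BV2 monocultures had 31.2 and 28.0 CPM in normoxia and 12.2 and 11.6 CPM in hypoxia (log2 fold change -1.31, SE 0.15, adjusted p = 9.39e-07 by edgeR), and co-cultures 19.6 and 19.5 CPM against 7.52 and 5.66 CPM (-1.57, SE 0.16, adjusted p = 3.30e-07). GL261 had 82.7 and 93.6 CPM against 42.9 and 43.4 CPM in monoculture (-1.03, SE 0.12, adjusted p = 6.63e-05). Their co-cultures had 90.0 and 92.1 CPM against 37.3 and 37.5 CPM (-1.28, SE 0.12, adjusted p = 9.97e-06). In these 4 comparisons the libraries of the 2 oxygen levels were well apart. BMDM had the most Cdkn2c, 250 and 182 CPM in normoxic and 93.2 and 103 CPM in hypoxic monoculture (-1.14, SE 0.32, adjusted p = 0.0248). The call was lost without the first normoxic library (-0.95, adjusted p = 0.139), the first hypoxic (-1.09, 0.128) or the second hypoxic (-1.23, 0.101). BMDM co-cultures had 238, 132 and 168 CPM in normoxia and 79.8, 42.3 and 67.5 CPM in hypoxia (-1.51, SE 0.26, adjusted p = 0.00136). In DMSO-treated BV2 the levels were 14.9 and 25.5 CPM against 3.77 and 12.3 CPM, a call at the threshold (-1.33, SE 0.47, adjusted p = 0.0498). It was lost without the first normoxic (-1.64, adjusted p = 0.0522), the second normoxic (-0.87, 0.29) or the first hypoxic library (-0.73, 0.189). DMSO-treated BMDM had 25.3 and 127 CPM in normoxia and 9.43 and 29.9 CPM in hypoxia, so the groups overlapped (-1.96, SE 0.89, adjusted p = 0.229). Cdkn2c was lower within each same-numbered pair, and a fit with replicate number as a block called it. The summed level of 10 proliferation markers moved with Cdkn2c in those macrophage libraries, at 501 and 2544 CPM in normoxia and 185 and 519 CPM in hypoxia, and its part in the result was not tested.

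Cdkn2d, which encodes p19Ink4d, was called in 1 of the 8 hypoxia comparisons. BV2 monocultures had 25.5 and 22.2 CPM in normoxia and 20.1 and 15.1 CPM in hypoxia, a 1.36-fold fall (log2 fold change -0.44, SE 0.15, adjusted p = 0.0205 by edgeR). Leaving out the first normoxic library gave -0.34 (adjusted p = 0.141), leaving out the second hypoxic one -0.22 (0.293), and testing only genes with a mean CPM of at least 5 gave -0.36 (0.0551). The BV2 co-cultures had 22.7 and 20.6 CPM against 19.3 and 22.5 CPM (-0.05, SE 0.15, adjusted p = 0.793). DMSO-treated BV2 lay the other way, with 15.7 and 17.8 CPM in normoxia and 25.9 and 24.0 CPM in hypoxia (0.58, SE 0.22, adjusted p = 0.0616). In GL261 the values ran from 29.5 to 52.8 CPM in all 8 libraries, with log2 differences of 0.37 (SE 0.19, adjusted p = 0.147) and 0.18 (SE 0.20, adjusted p = 0.453). Without the first normoxic library, the GL261 monoculture difference was 0.68 with an adjusted p of 0.0282. The BMDM differences were 0.18 (SE 0.23, adjusted p = 0.616) in monoculture, -0.25 (SE 0.19, adjusted p = 0.34) in co-culture and -0.52 (SE 0.37, adjusted p = 0.404) with DMSO, and none was called.

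The responses of both lines to hypoxia were compared directly in a fit of the 16 BV2 and GL261 libraries. Cdkn1a rose more in BV2 than in GL261, by 2.02 on the log2 scale in monoculture (SE 0.20, adjusted p = 4.00e-07) and by 1.43 in co-culture (SE 0.20, adjusted p = 2.30e-05). Cdkn1b differed in the same sense, by 1.28 (SE 0.20, adjusted p = 5.52e-05) and 0.95 (SE 0.20, adjusted p = 0.00122). Cdkn2a differed by 1.05 (SE 0.21, adjusted p = 0.000692) and 1.09 (SE 0.21, adjusted p = 0.000598), since it fell in GL261 and was not called in BV2. Cdkn2b differed in co-culture by 1.49 (SE 0.40, adjusted p = 0.00731), and this call was lost without the second normoxic BV2 co-culture (0.73, adjusted p = 0.224) or the second normoxic GL261 co-culture (1.20, 0.0532). For Cdkn2d the difference in monoculture was -0.71 (SE 0.26, adjusted p = 0.0424). Its call was lost without the first normoxic BV2 monoculture (-0.60, adjusted p = 0.144), the second hypoxic BV2 monoculture (-0.52, 0.203), the second normoxic GL261 monoculture (-0.55, 0.125) or the first hypoxic GL261 monoculture (-0.69, 0.0753). Cdkn2c fell alike within error, with differences of -0.18 (SE 0.18, adjusted p = 0.492) and -0.15 (SE 0.19, adjusted p = 0.577), which does not show that the responses are equal. The Cdkn1c difference of 1.02 in monoculture (SE 0.41, adjusted p = 0.0564) was called without the second hypoxic GL261 monoculture (1.504, adjusted p = 0.00291). In all, 4 of 7 members were called in monoculture and 4 in co-culture, against 37.4% and 37% of the 16882 genes tested. The starting levels differed as well, because in normoxic monoculture 6 members were lower in BV2 than in GL261 where 73.2% of all genes were called. These were Cdkn2b (log2 difference -3.08, SE 0.29, adjusted p = 1.83e-08), Cdkn2c (-1.46, SE 0.13), Cdkn1b (-1.40, SE 0.14), Cdkn1a (-1.33, SE 0.14), Cdkn2d (-0.50, SE 0.19) and Cdkn2a (-0.49, SE 0.15). Without the first normoxic GL261 monoculture, Cdkn2a (-0.26, adjusted p = 0.157) and Cdkn2d (-0.22, 0.346) were not called, nor was Cdkn2d without the second normoxic BV2 monoculture (-0.42, 0.127).

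Few inhibitors were called for co-culture itself, and these counts are near the background. In BV2 the call was Cdkn2c, lower with GL261 in normoxia (log2 fold change -0.60, SE 0.14, adjusted p = 0.0109 by edgeR) and in hypoxia (-0.85, SE 0.16, adjusted p = 0.0019), 1 of 7 members each time against 14.9% and 15.7% of all genes. GL261 monocultures hold more Cdkn2c than BV2, and partner RNA was expected to supply 2.59% and 4.17% of the Cdkn2c level of the normoxic and 12.3% and 18.6% of the hypoxic BV2 co-cultures. With the expected partner counts subtracted the differences were -0.61 (adjusted p = 0.024) and -1.03 (adjusted p = 0.0022). The normoxic call was lost without the first BV2 monoculture (-0.53, adjusted p = 0.0622), the first co-culture (-0.60, 0.0705) or the second co-culture (-0.62, 0.0584). Proliferation markers summed to 4123 and 4253 CPM in normoxic BV2 monocultures and 3615 and 3612 CPM in co-cultures, and to 1707 and 1564 CPM against 1558 and 1030 CPM in hypoxia, and their part in the Cdkn2c difference was not tested. Cdkn2b, at 1.83 and 2.25 CPM in hypoxic BV2 monoculture and 3.84 and 3.62 CPM in co-culture, was not called (0.87, SE 0.31, adjusted p = 0.0724).

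**Figure D4:**
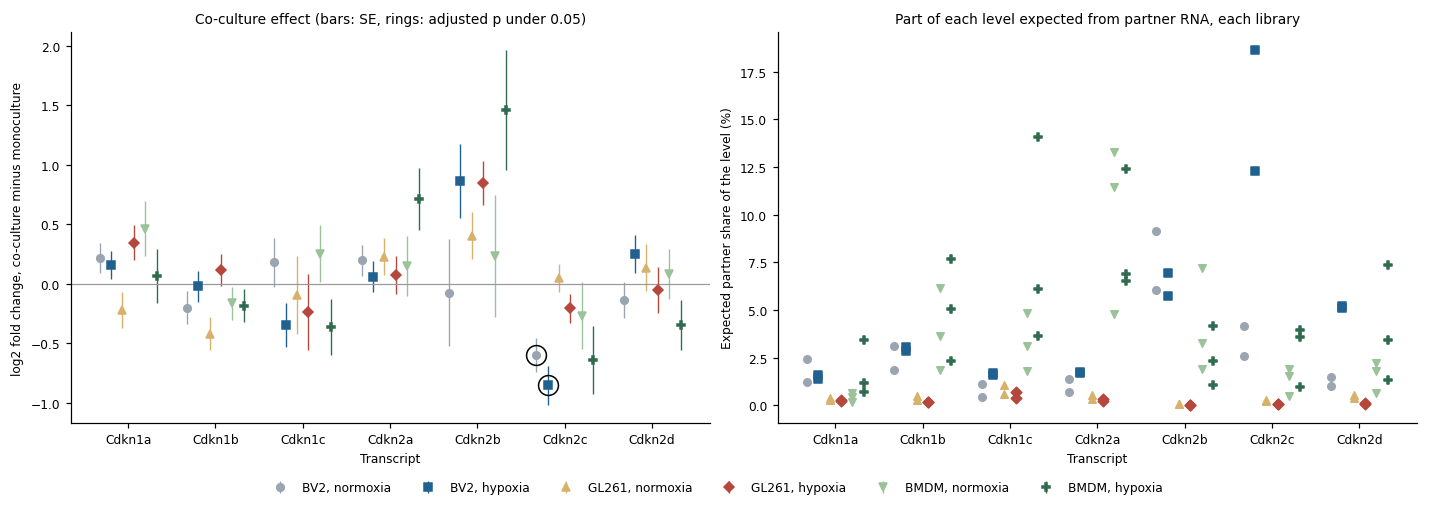
Left, log2 fold change of co-culture over monoculture (y axis) for each inhibitor (x axis) in 3 cell types and 2 oxygen levels, with standard errors and rings at an adjusted p under 0.05. Right, the percentage of each level expected from partner RNA in each co-culture library. The 2 rings are those of Cdkn2c in BV2, and the highest expected share is 18.6%, for Cdkn2c in hypoxic BV2 co-culture.

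No member was called for co-culture in GL261, where 0.514% of all genes were called in normoxia and 1.39% in hypoxia, nor in BMDM, where 1.64% and 7.11% were called. At an unadjusted p under 0.05 there were 1 and 2 members in GL261 and 0 and 3 in BMDM, and DESeq2 called 0 and 1 in GL261 and 0 and 1 in BMDM. Cdkn2b came nearest in GL261: hypoxic monocultures had 11.4 and 9.31 CPM and co-cultures 18.3 and 18.98 CPM (log2 fold change 0.85, SE 0.19, adjusted p = 0.0513 by edgeR). Without the first hypoxic monoculture its value was 0.99 (adjusted p = 0.0425). In hypoxic BMDM the same gene had 8.44 and 5.46 CPM alone and 7.83, 33.9 and 15.3 CPM with GL261 (1.46, SE 0.50, adjusted p = 0.106). Without the first hypoxic co-culture library, Cdkn2b (1.85, adjusted p = 0.0131) and Cdkn2a (0.96, adjusted p = 0.0105) were called. With every library kept, DESeq2 also called Cdkn2b (1.49, adjusted p = 0.0252), and without the count filter edgeR called Cdkn2b (adjusted p = 1.78e-05) and Cdkn2a (0.0185). The interaction of hypoxia with co-culture was called for no member in BV2 (2.19% of all genes), GL261 (0% of all genes) or BMDM (0%). At an unadjusted p under 0.05 it held 0, 2 and 0 members, Cdkn1a and Cdkn1b being those in GL261, and DESeq2 called none of the members.

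In hypoxic BV2, panobinostat lowered Cdkn1c and raised Cdkn2d, 2 of 7 members against 14.6% of all 13294 genes (7.21% higher, 7.39% lower). Cdkn1c had 28.7 and 28.99 CPM with DMSO and 5.88 and 8.22 CPM with panobinostat, a 4.08-fold fall (log2 fold change -2.03, SE 0.27, adjusted p = 0.00279 by edgeR). The treated libraries lay near the normoxic DMSO ones, which had 8.86 and 7.52 CPM. Cdkn2d had 25.9 and 24.0 CPM with DMSO and 65.5 and 52.0 CPM with the drug (1.23, SE 0.22, adjusted p = 0.00818), above the normoxic 15.7 and 17.8 CPM. Without the first panobinostat library the Cdkn2d value was 1.05 (adjusted p = 0.0941). Cdkn1a, often described as induced by histone deacetylase inhibitors, had 706 and 533 CPM with DMSO and 520 and 493 CPM with panobinostat (-0.29, SE 0.30, adjusted p = 0.554). Both treated libraries lay below both DMSO libraries, by less than the error allows to call. Cdkn1b had 90.9 and 87.9 CPM against 54.0 and 63.8 CPM (-0.60, SE 0.19, adjusted p = 0.0621), and Cdkn2a 145 and 111 CPM against 248 and 166 CPM (0.70, SE 0.25, adjusted p = 0.0899). Neither pair of groups overlapped and neither was called. A fit with replicate number as a block called Cdkn1b and Cdkn2a, and also Cdkn2b, which rose in each same-numbered pair. For Cdkn2b the libraries overlapped, at 8.96 and 2.99 CPM against 15.5 and 6.34 CPM (0.87, SE 0.54, adjusted p = 0.307), as they did for Cdkn2c, at 3.77 and 12.3 CPM against 4.35 and 3.82 CPM (-0.98, SE 0.50, adjusted p = 0.212). Without the first hypoxic DMSO library both were called (Cdkn2b 1.85, adjusted p = 0.0479; Cdkn2c -1.59, 0.0145). The hypoxia and the panobinostat comparisons share the hypoxic DMSO libraries, so their values stand side by side and were not correlated.

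**Figure D5:**
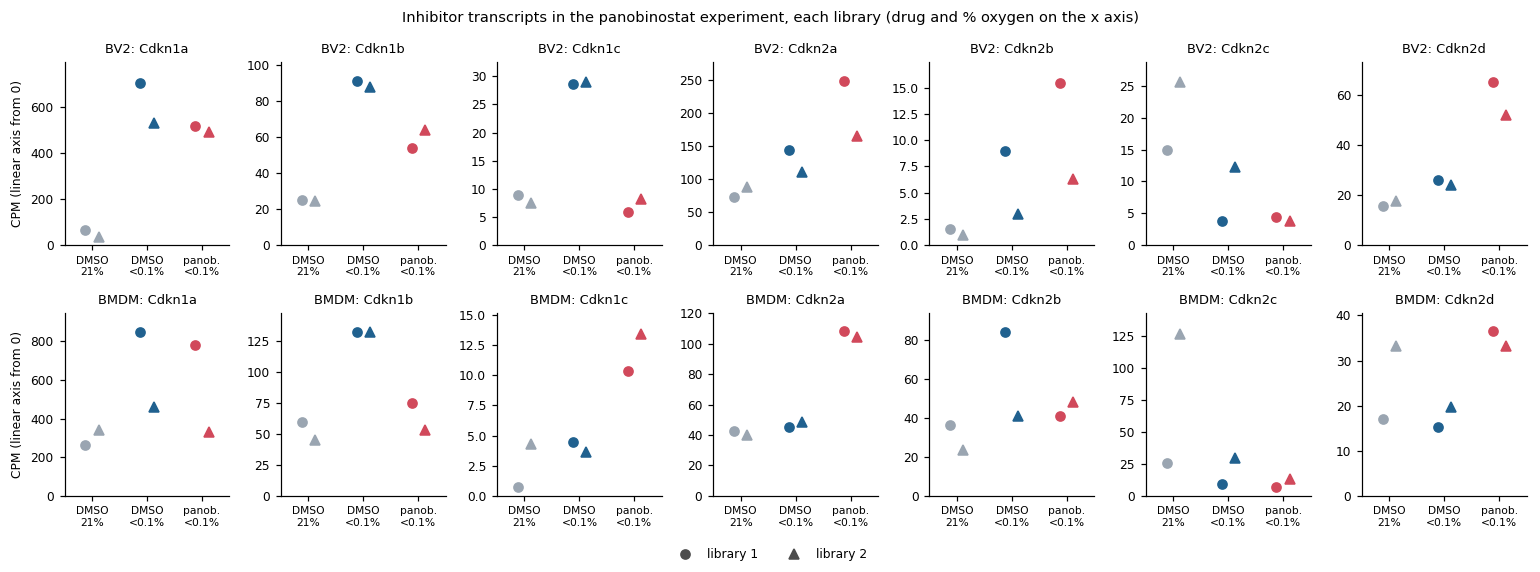
CPM after TMM scaling (y axis, linear from 0, scaled per panel) of each inhibitor in BV2 (top) and BMDM (bottom) with DMSO at 21% oxygen, DMSO below 0.1% and panobinostat below 0.1% (x axis). Circles and triangles are the first and second library, and in BV2 the panobinostat points of Cdkn1c lie at 5.88 and 8.22 CPM against 28.7 and 28.99 CPM with DMSO in hypoxia.

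In BMDM, panobinostat gave no call among the members or among all 14914 genes (0% of all genes) by edgeR, with 3868 genes at an unadjusted p under 0.05, of which 3 are members, and 2221 genes and 2 members called by DESeq2. Cdkn2a had 45.1 and 48.4 CPM with DMSO and 108 and 104 CPM with the drug (log2 difference 1.18, SE 0.20, adjusted p = 0.0613). Cdkn1b had 133 and 132 CPM against 75.1 and 53.3 CPM (-1.05, SE 0.27, adjusted p = 0.0883), and Cdkn2d 15.3 and 19.7 CPM against 36.5 and 33.1 CPM (0.99, SE 0.37, adjusted p = 0.167). In these genes the treated libraries did not overlap the DMSO ones, in the direction also measured in BV2. A fit with replicate number as a block called Cdkn2a and Cdkn1b. Cdkn1c lay the other way from BV2, at 4.43 and 3.66 CPM against 10.4 and 13.4 CPM (1.55, SE 0.75, adjusted p = 0.254). Cdkn1a (849 and 462 against 782 and 332 CPM), Cdkn2b (83.8 and 41.0 against 40.9 and 47.8 CPM) and Cdkn2c (9.43 and 29.9 against 6.73 and 13.2 CPM) overlapped. The summed level of the 14 macrophage markers differed as well, at 2983 and 4523 CPM with DMSO and 674 and 1771 CPM with panobinostat in hypoxia, and that of the 5 fibroblast markers at 2899 and 14212 CPM against 7704 and 12494 CPM. In the 6 BMDM libraries of this experiment Col1a1 and Col1a2 made up most of the fibroblast sum. Pdgfrb ran from 41.6 to 291 CPM there, against 0.803 to 7.03 CPM in the other BMDM libraries. Dcn reached at most 5.64 and Lum 0.264 CPM there, against 19.6 and 0.596 CPM in the other BMDM libraries. The part of cell make-up in the member values was not tested.

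Set directly against each other in a fit of the 12 libraries, BV2 and BMDM showed no member whose response to hypoxia with DMSO (0.664% of all 15955 genes called) or to panobinostat (0.0251%) was called as different. At an unadjusted p under 0.05 there were 2 members and 1 member, and DESeq2 called 1 each. The largest differences were 2.55 for Cdkn1a in the hypoxia response (SE 0.67, adjusted p = 0.0957) and -3.59 for Cdkn1c in the panobinostat response (SE 0.82, adjusted p = 0.185). In normoxia with DMSO, 4 members differed in level where 44.2% of all genes did. Cdkn2b (log2 difference -4.73, SE 0.69, adjusted p = 0.000457), Cdkn1a (-2.75, SE 0.50, adjusted p = 0.00171) and Cdkn1b (-1.27, SE 0.23, adjusted p = 0.00153) were lower in BV2 than in BMDM and Cdkn2a higher (0.78, SE 0.24, adjusted p = 0.0242). The Cdkn2a call was lost without the first (0.80, adjusted p = 0.0931) or second normoxic BMDM library (0.74, 0.102) or the second normoxic BV2 library (0.67, 0.12). Without the first BMDM library Cdkn2c (-2.86, adjusted p = 0.0156) and Cdkn2d (-1.19, 0.011) were called, and without the second Cdkn1c (3.30, 0.000711).

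Among the partners and downstream factors of the inhibitors, most called genes were lower in hypoxic BV2 and all were lower in hypoxic BMDM monocultures, for the cyclin, kinase and E2F lists. In BV2 monoculture, where the median log2 fold change of all genes was 0 and 31% of all genes were called lower, all 10 proliferation markers fell (median -1.53), among them the mitotic kinase Plk1 (-3.14, SE 0.18) and the replication helicase subunit Mcm2 (-2.40, SE 0.14). Of the 5 G1/S cyclins 4 fell (median -0.92), led by Ccne1 (-2.06, SE 0.14) and Ccnd1 (-1.99, SE 0.11), and all 3 S/G2/M cyclins fell (median -2.05), Ccnb1 by 2.32 on the log2 scale. Of 10 kinases and activators 7 fell and none rose (median -0.75), with Cdk1 at -1.54 (SE 0.16). Of 10 E2F factors and partners 8 fell and 1 rose (median -1.23), with Tfdp1 at -1.73 (SE 0.11), and of the pocket proteins Rb1 rose (1.05, SE 0.12), Rbl2 rose (0.65, SE 0.12) and Rbl1 fell (-1.42, SE 0.14). In BMDM monoculture, with a median over all genes of 0.03 and 10.6% of all genes called lower, the same lists gave 10 of 10 proliferation markers lower (median -1.28), 3 of 5 G1/S cyclins, 3 of 3 S/G2/M cyclins, 5 of 10 kinases and activators and 6 of 10 E2F genes lower, and none higher. GL261 monocultures, with a median over all genes of -0.03 and 23.2% of all genes called higher and 21.4% lower, had 1 proliferation marker lower (Pcna, -0.64, SE 0.12) and 2 higher (Mki67 0.72, SE 0.19, and Mcm3 0.60, SE 0.15), with a list median of -0.08. The summed proliferation markers were 3193 and 3253 CPM in normoxic and 4333 and 3307 CPM in hypoxic GL261 monocultures, against 4123 and 4253 CPM and 1707 and 1564 CPM in BV2. Their part in the inhibitor values was not tested.

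Genes known to act on the inhibitors gave mixed counts, to be read against 30.9% of all genes called higher and 31% lower in BV2 monoculture, 23.2% and 21.4% in GL261 and 13.3% and 10.6% in BMDM. In BV2 the p53 target counts are near that background. Of the p53 targets other than Cdkn1a, 8 rose and 6 fell of 22 tested in BV2 monoculture (median 0.02), with Btg2 at 3.19 (SE 0.22), Trp53inp1 at 2.89 (SE 0.31) and Gadd45a at 2.85 (SE 0.20). In GL261 monoculture 11 rose and 3 fell of 20 (median 0.73), with Plk2 at 2.92 (SE 0.40), and in BMDM monoculture 4 rose and 3 fell of 22 (median -0.21), with Gadd45a at 2.55 (SE 0.27). Mdm2, which encodes the ligase that degrades p53, rose in all 3 (BV2 1.53, SE 0.13; GL261 1.18, SE 0.14; BMDM 1.22, SE 0.23), while Trp53 itself fell in BV2 (-0.46, SE 0.12) and BMDM (-0.64, SE 0.15) and rose in GL261 (0.45, SE 0.14). Of 9 genes of p27 turnover and transcription, 2 rose and 4 fell in BV2 (median 0.18). Foxo3, a transcriptional activator of Cdkn1b, rose in BV2 (1.92, SE 0.14), GL261 (1.39, SE 0.14) and BMDM (0.75, SE 0.24), and Skp2, which targets p27 for degradation, fell in BV2 (-1.71, SE 0.12) and BMDM (-1.23, SE 0.30). Of 9 tested repressors of the Cdkn2a locus, 2 rose and 4 fell in BV2 (median -0.09), with Ezh2 at -1.42 (SE 0.14), while in GL261 4 rose and none fell (median 0.23), with Rnf2 at 0.94 (SE 0.16). Of 14 transcription factors that act on Cdkn1a, Cdkn2a or Cdkn2b, 6 rose and 2 fell in BV2 (median 0.23; Myc 2.42, SE 0.28), 8 rose and 1 fell in GL261 (median 0.51; Klf6 2.08, SE 0.26) and 4 rose and 1 fell in BMDM (median 0.11; Klf4 2.24, SE 0.21). With panobinostat in BV2 none of these 14 was called (median -0.22, all genes -0.01), while 5 of 10 proliferation markers fell (median -1.28), where 7.39% of all genes were called lower.

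Over all 38 libraries, with log2 CPM centred on each cell type's mean, the transcripts most like each member were listed by Pearson's r as a description. The libraries share cells, oxygen levels and scaling, so no p is given. Nearest to Cdkn1a was the cyclin G2 gene Ccng2 (r = 0.957), followed by Borcs6 (0.949) and Khnyn (0.949), and nearest to Cdkn1b were Cog3 (0.974), Crebrf (0.966) and Rb1cc1 (0.964). Cdkn2c was nearest to Stmn1 (0.969), Anapc5 (0.960) and the DNA ligase gene Lig1 (0.959). For Cdkn2b these were Zfand3 (0.885), Ets2 (0.865) and Dnajc1 (0.859), for Cdkn2a Cox19 (0.826), Lrrc42 (0.817) and Sgsm3 (0.798), for Cdkn2d Ttll1 (0.793), Bex3 (0.756) and Frmd8 (0.747), and for Cdkn1c Nt5dc3 (0.704), Tbccd1 (0.650) and Smurf2 (0.642). Among the members, Cdkn1a and Cdkn1b were most alike (0.884), Cdkn2b was like Cdkn1a (0.751), and Cdkn2c ran opposite to Cdkn2b (-0.816) and Cdkn1a (-0.704). Cdkn1a and Cdkn2a were unrelated on this measure (-0.0143).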

How the data were processed

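The authors deposited raw read counts per gene in 3 tables of 55487 genes, per the labels and the file headers, with 1 column per library. The submitters' processing notes name mm10, Trimmomatic 0.36, STAR 2.6, Picard 2.17.1, SAMtools, HTSeq 0.9.1 and deepTools without their roles. The counting settings, strand included, are not given in the sources used here. Groups came from the labels. Counts were fitted with edgeR 4.0.16 (R 4.3.3), quasi-likelihood test, TMM scaling, filterByExpr (minimum count 10, minimum total 15) and 1 mean per group, in 1 fit per cell type and experiment, with 2 joint fits for differences between cell types. A call is a Benjamini-Hochberg adjusted p under 0.05 over all genes tested, and the SE is the absolute log2 fold change divided by the square root of F. The fits were tested on simulated data.

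Partner RNA was estimated from transcripts at least 100-fold higher in the partner's monoculture. Every member was named for hypoxia and for panobinostat in each cell type. In the other comparisons only some members were named. Of each gene list up to 3 called genes with the largest change were named. The members and lists were chosen with earlier results of these data known. Alternatives were DESeq2 1.42.0, its size factors, other filters, a replicate block, a fit restricted to the compared groups, omission of each library in turn, and subtracting partner RNA. Library totals of 9634700 to 27238933 counts make 3 counts equal to 0.110 to 0.311 CPM. In BMDM co-culture, same-numbered hypoxic and normoxic libraries deviated together from their group means (r = 0.46, 0.24 and 0.41). The values given above nevertheless come from fits without a term for replicate number. A fit with that number as a block left 3 members called for hypoxia there, as before. No library was left out. Gene models were GENCODE M21 (GRCm38) and promoter windows RefSeq.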

Additional observations from a re-analysis of the deposited data

Results flagged for a closer look

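The size of the hypoxia response differed between BV2 and GL261 by a test of the difference itself (edgeR's quasi-likelihood interaction, adjusted over 16882 genes) for 4 members in each culture. In monoculture the difference, BV2 minus GL261, was 2.02 on the log2 scale for Cdkn1a, 1.28 for Cdkn1b, 1.05 for Cdkn2a and -0.71 for Cdkn2d. In co-culture it was 1.43 for Cdkn1a, 0.95 for Cdkn1b, 1.09 for Cdkn2a and 1.49 for Cdkn2b. The median difference over all genes was 0.15 in monoculture and 0.26 in co-culture, and 37.4% and 37% of all genes were called, so a difference between the lines is common.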

How the results depend on the processing

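Of 2129 member values under alternatives, 1942 kept their direction and their side of the threshold, 69 passed it and 40 lost it. An uncalled value that kept its sign but had no DESeq2 adjusted p was counted among the 1942. The remaining 78 were uncalled values that changed sign, and no called value changed sign. The number of members called for co-culture in hypoxic BV2 was 1, and 2 with only the groups compared. For co-culture in hypoxic GL261 it was 0, against 1 each with DESeq2's size factors, without the count filter, with the replicate block and with DESeq2. For hypoxia in BMDM monoculture it was 3, and 5 with only the groups compared. For co-culture in hypoxic BMDM it was 0, against 3 without the filter and 1 with DESeq2. For panobinostat in BV2 it was 2, against 4 without the filter and 5 with the block. With DMSO in BMDM, hypoxia gave 0, against 3 without the filter, 2 with the block and 1 with DESeq2, and panobinostat 0, against 3, 2 and 2. Of the BV2 minus BMDM differences, the hypoxia response gave 0, against 1 under each of these settings, and the panobinostat response 0, against 1 without the filter and 1 with DESeq2. The cause of these shifts was not tested. Apart from BMDM co-culture each comparison has 2 same-numbered pairs, too few to show a pairing. In the panobinostat experiment same-numbered libraries nevertheless deviated together in every pair of groups (r = 0.15 to 0.39 in BV2 and 0.34 to 0.59 in BMDM). In GL261 they also did so in every pair of groups (r = 0.043 to 0.369). In the BV2 co-culture experiment r ran from -0.0807 to 0.175. Under the replicate block 14 of 175 member values gained a call and none lost one. Those gained for panobinostat in BV2 were Cdkn1b (adjusted p = 0.0153), Cdkn2a (0.0145) and Cdkn2b (0.0225) and in BMDM Cdkn1b (0.0335) and Cdkn2a (0.026), and for hypoxia with DMSO Cdkn2a (0.0142) and Cdkn2d (0.0232) in BV2 and Cdkn1b (0.0238) and Cdkn2c (0.0323) in BMDM.

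Leaving out 1 library at a time, the members called for hypoxia numbered 5 to 6 in BV2 monoculture, 4 to 5 in BV2 co-culture, 4 to 6 in GL261 monoculture, 5 in GL261 co-culture, 1 to 2 in BMDM monoculture, 3 to 4 in BMDM co-culture, 3 to 6 in BV2 with DMSO and 0 in BMDM with DMSO. For co-culture they numbered 0 to 1 in normoxic and 1 in hypoxic BV2, 0 and 0 to 1 in GL261, and 0 and 0 to 2 in BMDM. Interactions gave 0. Panobinostat gave 1 to 4 in BV2 and 0 in BMDM. Differences between the lines numbered 3 to 5 and 3 to 4 for hypoxia and 4 to 6 for level, and between BV2 and BMDM 0 and 0 for the responses and 3 to 5 for level.

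Counts over all genes moved more. BMDM calls for panobinostat ran from 0 to 2867 and for hypoxia with DMSO from 0 to 3259, and BV2 calls for panobinostat from 292 to 4025. BMDM monoculture hypoxia ran from 1288 to 6289, and co-culture from 451 to 2519 in normoxic and 1403 to 3183 in hypoxic BV2. The BV2 interaction ran from 59 to 981. Plain CPM moved 23 of 126 group levels by more than 1 SD, by ratios of 0.901 to 1.12.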
